A study of Homo sapiens with 6 samples.

Results

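The plasminogen activation genes followed here are PLAU, PLAUR, PLAT, SERPINE2, SERPINB2, ANXA2 and S100A10, 7 genes chosen by name. Every probe set whose only annotated symbol was 1 of these genes was taken, which gave 14 of the 54675 probe sets on the array. They stand for 6 of the 7 genes, beside 19775 genes with a probe set of their own in all. SERPINB2 had no probe set under this rule and was not analysed here. PLAU had 2 probe sets, PLAUR 3, PLAT 1, SERPINE2 2, ANXA2 4 and S100A10 2, and all 14 passed the filter on dim probe sets described with the processing. Probe sets of 1 gene measure the same RNA on the same arrays, so they are not replicates of each other.

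RNA came from MDA-MB-231, an established human triple-negative breast cancer cell line with a mesenchymal character. In the TCI04 group, 3 arrays measured cells given TCI04 at 50 µM for 48 h, and in the PBS group, 3 arrays measured cells given phosphate-buffered saline for the same time. TCI04 is known here only by its code name, and both groups were the same line in the same culture medium. Whether replicate arrays stand for separate cultures is not in the labels, and every p-value below therefore reflects array-to-array spread that may be technical.

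Plasmin is a serine protease that dissolves fibrin and degrades parts of the extracellular matrix, and it is made from plasminogen by the activators urokinase (PLAU) and tissue plasminogen activator (PLAT). Urokinase binds a lipid-anchored receptor, PLAUR, which keeps proteolysis at the cell surface, and serpins such as SERPINE2 trap the activators in inactive complexes. Annexin A2 and S100A10 form a complex at the plasma membrane that binds tissue plasminogen activator and plasminogen. Invasive breast cancer lines such as MDA-MB-231 are known for high urokinase and urokinase receptor.

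AP-1 factors, dimers of FOS and JUN family proteins, are known to act on genes of this system, and FOS was the only gene past the adjusted threshold in these arrays. The promoter windows of the members were therefore searched for the AP-1 letters TGANTCA, which read the same on both strands. RefSeq promoter entries (GRCh38.p14) run from 250 bases before to 50 after a gene's start, and 6 of the 7 members had 8 entries in all; PLAT was not matched. A match was found in 3 of the 8 entries, those of PLAUR, ANXA2 and SERPINB2, whereas 7.71% of all 35116 entries held one. The letters were TGAGTCA in PLAUR and ANXA2 and TGAATCA in SERPINB2, which has no expression value here. The windows of the 2 measured genes with a match are printed, with the matching letters in capitals:
PLAUR, chr19:43670309-43670395, minus strand: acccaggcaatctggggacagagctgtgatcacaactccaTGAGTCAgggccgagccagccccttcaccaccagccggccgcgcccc
ANXA2, chr15:60398067-60398153, minus strand: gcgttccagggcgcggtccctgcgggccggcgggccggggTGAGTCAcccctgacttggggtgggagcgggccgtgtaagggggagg
The match lies 186 to 180 bases before the start in PLAUR and 127 to 121 bases before it in ANXA2. A match describes letters only, and the entries of PLAU, SERPINE2 and S100A10 without these letters say nothing of AP-1 elsewhere at those genes.

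The comparison asked whether the RNA of the system differed with TCI04 treatment. None of the 14 probe sets passed the adjusted threshold of 0.05 in limma (lowest adjusted p = 0.699). At an unadjusted p under 0.05 there were 2, both for ANXA2 and both lower with TCI04, and without moderation of the variances the same model gave 0 at that level. Without PBS replicate 3 or TCI04 replicate 1 there were 0, without PBS replicate 2 there was 1, and without PBS replicate 1, TCI04 replicate 2 or TCI04 replicate 3 there were 3. Quantile normalization and the fit without the filter gave 0. Median centring gave 2 others, PLAUR 210845_s_at and PLAUR 211924_s_at, both higher (limma unadjusted p = 0.0485 and 0.0140, adjusted p = 0.326 and 0.281). In the main fit, 0.00305% of all 32746 tested probe sets passed the adjusted threshold, which is 1 probe set. An unadjusted p under 0.05 was found for 7.11% of all, with 4.9% of all on the lower side. These shares are not given for the alternatives, so the member counts under those have no background here. With TCI04, 8 of the 14 had a lower mean and 6 a higher one, beside 56.2% lower over all probe sets tested. With median centring the split turned to 5 lower and 9 higher. The 2 groups of arrays did not overlap for 1 of the 14, an ANXA2 probe set on the lower side, where the background was 13.6% in both directions and 8.21% on the lower side. In bulk RNA a lower level in every cell and a loss of expressing cells cannot be told apart.

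The precision was enough to bound most shifts. For 12 of the 14 probe sets the 95% interval of the difference lay within 1.5-fold in both directions, and for all 14 it lay within 2-fold. With 1 array left out, 11 to 13 lay within 1.5-fold. The interval of the dim SERPINE2 227487_s_at passed 2-fold with an offset of 1 and without PBS replicate 3, TCI04 replicate 2 or TCI04 replicate 3, and that of PLAU 211668_s_at did with variances not moderated. The exceptions at 1.5-fold were the dimmer probe sets of PLAU and SERPINE2. These intervals come from 3 arrays per group, and they show bounds on a difference, not that the groups were alike.

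**Figure D1:**
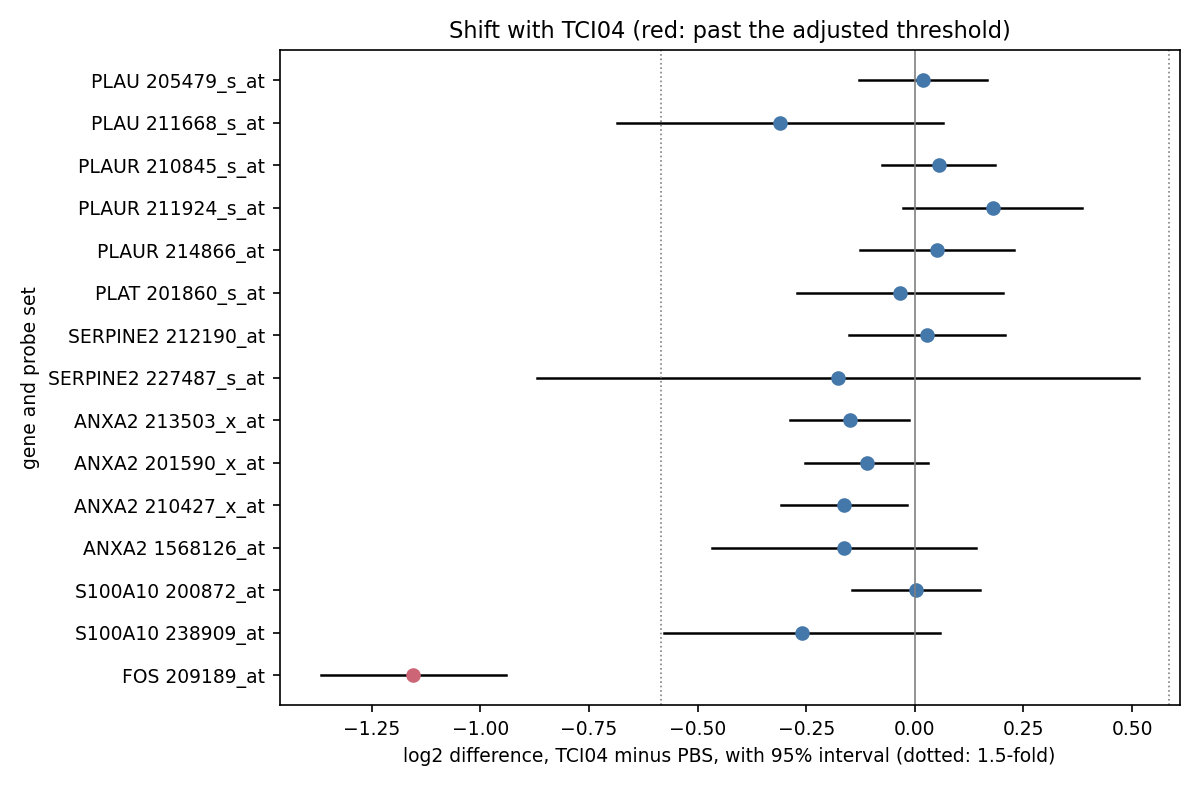
Log2 difference (TCI04 minus PBS, horizontal axis) with its 95% interval for each of the 14 probe sets and for FOS, 3 arrays per group. The intervals of 12 of the 14 probe sets stay inside the dotted lines at 1.5-fold, while that of FOS runs from -1.37 to -0.94.

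Of the activators, urokinase itself was measured by a bright and a dimmer probe set, which differed. On PLAU 205479_s_at the signal, a MAS5 intensity on a linear scale, was 4662, 5289 and 5295 in the PBS arrays and 5232, 5028 and 5161 in the TCI04 arrays. The 3 TCI04 values lay inside the PBS range, and PBS replicate 1 was the lowest of the 6. The means were 5082 ± 364 with PBS and 5140 ± 104 with TCI04 (SD, n = 3 each), a log2 difference of 0.02 (SE 0.07, 95% interval -0.13 to 0.17; limma adjusted p = 0.955).

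On PLAU 211668_s_at the signal was 1540.2, 1743 and 1866 with PBS and 1541, 1709 and 993 with TCI04. TCI04 replicates 1 and 2 lay within the PBS range, and TCI04 replicate 3 alone was low. The log2 difference was -0.31 (SE 0.17, interval -0.68 to 0.06; limma adjusted p = 0.702), and without TCI04 replicate 3 it was -0.08.

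Tissue plasminogen activator, the activator best known for its part in dissolving fibrin clots, had 1 probe set, PLAT 201860_s_at. Its signal was 1055, 861 and 826 in the PBS arrays and 950, 862 and 853 in the TCI04 arrays. The highest and the lowest of the 6 values were both PBS arrays, replicates 1 and 3, so the groups overlapped fully. The means were 914 ± 123 and 889 ± 53.7, a log2 difference of -0.03 with an interval from -0.27 to 0.20. Without PBS replicate 1 the difference was 0.07.

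The urokinase receptor PLAUR had a higher mean with TCI04 on all 3 of its probe sets, and none passed. On PLAUR 210845_s_at the signal was 3437, 3552 and 3640 with PBS and 3639, 3735 and 3662 with TCI04. The lowest TCI04 array and the highest PBS array nearly coincided, so the groups only just overlapped. The log2 difference was 0.05 (interval -0.08 to 0.18; limma adjusted p = 0.833).

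PLAUR 211924_s_at had the largest upward difference of the 14 probe sets. It measured 1673, 1887 and 1678 with PBS and 2003, 2191 and 1755 with TCI04. TCI04 replicates 1 and 2 were above every PBS array, whereas TCI04 replicate 3 fell between them. The log2 difference was 0.18 (SE 0.09, interval -0.03 to 0.38; limma adjusted p = 0.702), or 13.6% above the PBS mean. It was 0.26 without TCI04 replicate 3 and 0.10 without TCI04 replicate 2.

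The dimmest probe set of the receptor, PLAUR 214866_at, measured 899, 912 and 958 with PBS and 988, 939 and 942 with TCI04, a log2 difference of 0.05 with an interval from -0.13 to 0.23. All 3 receptor probe sets had their lowest value in PBS replicate 1. Without that array the 3 differences were 0.03, 0.15 and 0.03. Median centring, which shifts all probe sets upward, gave 0.21, 0.34 and 0.21 in the same order, and quantile normalization 0.02, 0.16 and 0.05, none of them past the adjusted threshold.

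The inhibitor SERPINE2, also called protease nexin-1, blocks urokinase, tissue plasminogen activator and thrombin. On SERPINE2 212190_at the signal was 2624, 2481 and 2791 with PBS and 2635, 2479 and 2952 with TCI04. Both groups had a low, a middle and a high array, and they overlapped fully. The log2 difference was 0.03 (interval -0.15 to 0.21; limma adjusted p = 0.942), and it was -0.04 without TCI04 replicate 3 and -0.01 without PBS replicate 2. The other probe set, SERPINE2 227487_s_at, was dim, at 71.4, 68.7 and 42.2 with PBS and 39.4, 62.7 and 54.2 with TCI04, and its interval from -0.87 to 0.52 was the widest of the 14.

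Compared by the brightest probe set of each member gene, annexin A2 had the lowest mean relative to PBS. ANXA2, a calcium-dependent phospholipid-binding protein, had 3 bright probe sets whose names end in _x_at, a suffix that marks probes able to bind related transcripts. On ANXA2 213503_x_at the signal was 29492, 32645 and 31747 with PBS and 26101, 29367 and 29179 with TCI04. All 3 TCI04 arrays lay below all 3 PBS arrays, although TCI04 replicates 2 and 3 came close to PBS replicate 1. The means were 31295 ± 1624 and 28216 ± 1834, 1.11-fold lower, with a log2 difference of -0.15 (SE 0.06, interval -0.29 to -0.01; limma unadjusted p = 0.0347, adjusted p = 0.699).

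ANXA2 210427_x_at measured 27725, 31508 and 29891 with PBS and 24459, 27729 and 27407 with TCI04. TCI04 replicate 2 and PBS replicate 1 nearly coincided, so the groups overlapped by these 2 arrays. The log2 difference was -0.16 (interval -0.31 to -0.02; limma unadjusted p = 0.0313, adjusted p = 0.699).

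ANXA2 201590_x_at measured 27472, 31739.7 and 30821 with PBS and 26309, 28457 and 28482 with TCI04, a log2 difference of -0.11 with an interval from -0.25 to 0.03. PBS replicate 1 lay within the TCI04 range, and TCI04 replicate 1 was the lowest array on all 3 bright probe sets. Without PBS replicate 1 the differences of ANXA2 213503_x_at, ANXA2 210427_x_at and ANXA2 201590_x_at were -0.19, -0.21 and -0.17. Without TCI04 replicate 1 they were -0.10, -0.11 and -0.07, and ANXA2 201590_x_at was at -0.07 without PBS replicate 2.

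Most probe sets this bright had lower means with TCI04. By mean signal the 3 bright ANXA2 probe sets ranked 144, 158 and 173 of all 32746 tested. Of the 100 probe sets ranked 101 to 200, 99 had a lower mean with TCI04, with a median log2 difference of -0.11, and of the 100 brightest all 100 did, with a median of -0.12. In the ranks 101 to 200 the groups did not overlap, with TCI04 lower, for 17%, and 26% had an unadjusted p under 0.05 toward lower values. The lowest difference in those ranks was -0.20, so the ANXA2 differences of -0.15, -0.11 and -0.16 lay between it and the median.

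Scaling also set the sign for 2 of the 4 ANXA2 probe sets. Centring the arrays on their medians moved the median log2 difference of all tested probe sets from -0.03 to 0.13. It gave 0.01 for ANXA2 213503_x_at and 0.05 for ANXA2 201590_x_at. The other 2, ANXA2 210427_x_at and ANXA2 1568126_at, kept a lower sign only barely, at -0.0037 and -0.0038. Relative to the median of all probe sets, the 3 bright ANXA2 probe sets lay at -0.12, -0.08 and -0.14 (213503, 201590 and 210427), and after quantile normalization at -0.05, -0.02 and -0.07.

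ANXA2 has processed pseudogenes of near-identical sequence, and what the _x_at probe sets take up from these cannot be told apart from the gene itself. The brightest pseudogene probe set, ANXA2P2 208816_x_at, measured 21041, 22046 and 22518 with PBS and 20569.8, 22491 and 22713 with TCI04. Its log2 difference was 0.00 with an interval from -0.12 to 0.13, and the groups overlapped fully there. The dimmer ANXA2P1 210876_at and ANXA2P3 211241_at also overlapped. They were at -0.13 (interval -0.42 to 0.16) and 0.56 (interval -0.16 to 1.28). The fourth ANXA2 probe set, 1568126_at, measured 361, 406 and 379 with PBS and 369, 376 and 282 with TCI04 (log2 difference -0.16, interval -0.47 to 0.14), and only TCI04 replicate 3 was below the PBS range. A further probe set annotated to both ANXA2 and SNU13 was not used.

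S100A10, the partner of annexin A2 in the plasminogen-binding complex, had nearly equal means in the groups on its bright probe set. On S100A10 200872_at the signal was 14452, 17008 and 16741 with PBS and 15911, 16481 and 15781 with TCI04. The TCI04 arrays were close together in the middle of the PBS range, and PBS replicate 1 was the lowest of the 6. The means were 16067 ± 1405 and 16058 ± 373, a log2 difference of 0.00 (interval -0.14 to 0.15; limma adjusted p = 0.995). This probe set ranked 446 by mean signal, and 88.4% of the 500 brightest had a lower mean with TCI04. The difference between the shifts of ANXA2 and S100A10 was not tested.

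The other probe set, S100A10 238909_at, measured 455, 517 and 479 with PBS and 443, 457 and 320 with TCI04. TCI04 replicate 2 lay inside the PBS range, TCI04 replicate 1 slightly below it, and TCI04 replicate 3 far below. The log2 difference was -0.26 (interval -0.58 to 0.06; limma adjusted p = 0.702), and -0.10 without TCI04 replicate 3.

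**Figure D2:**
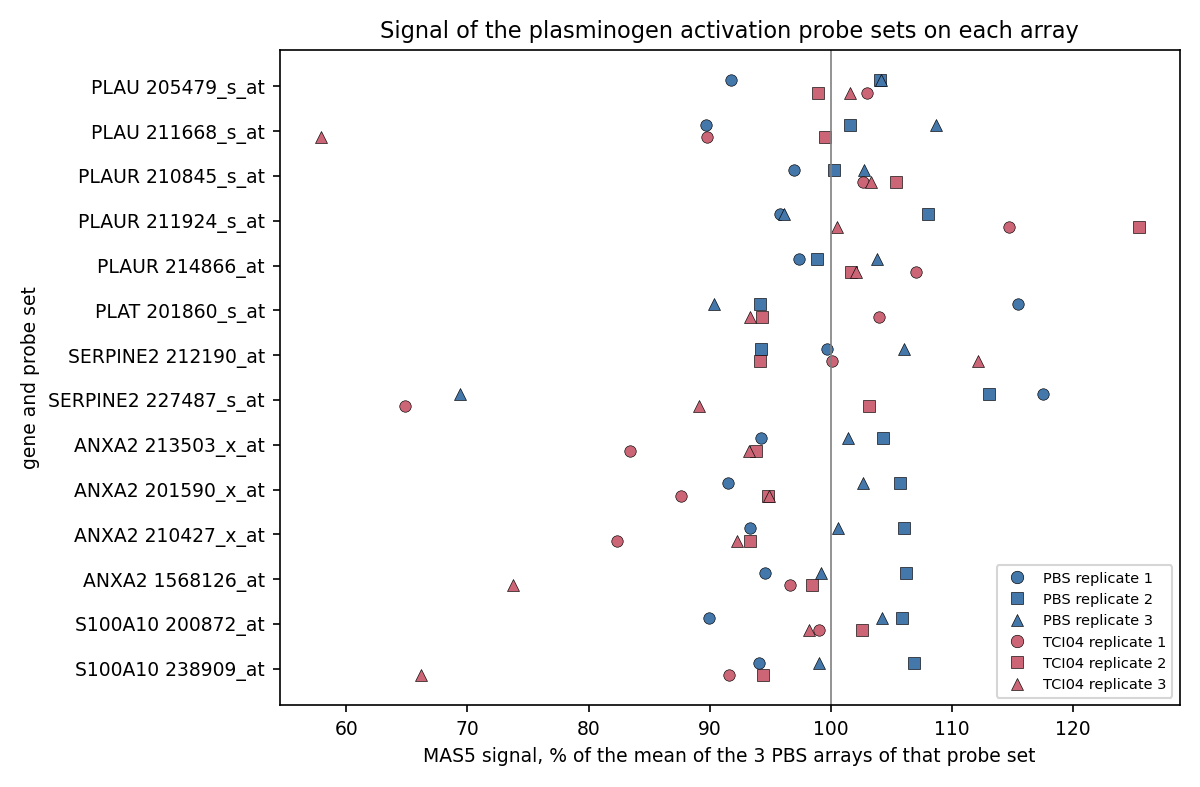
Signal of each of the 14 probe sets on each array, as a percentage of the mean of the 3 PBS arrays for that probe set (horizontal axis); colour marks the group and shape the replicate number. TCI04 replicate 3 stands apart on PLAU 211668_s_at, ANXA2 1568126_at and S100A10 238909_at, and PBS replicate 1 is lowest on all 3 PLAUR probe sets.

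The dimmest probe sets of PLAU, S100A10 and ANXA2 had their lowest value in TCI04 replicate 3, and the brighter probe sets of the same genes did not. This array was the lowest for 3 of the 14 member probe sets, beside 23% of all tested probe sets. These dimmest probe sets, with means of 1565, 445 and 362, were well above the filter's signal of 37.04. The ratio of the brighter to the dimmer probe set of PLAU was 2.84 to 3.40 on the other 5 arrays and 5.20 on TCI04 replicate 3. For S100A10 it was 31.8 to 36.1 on the other arrays and 49.3 on this one. For ANXA2 (213503_x_at over 1568126_at) it was 70.7 to 83.8 and 104. The receptor did not share this, with ratios of 1.71 to 2.17 and 3.68 to 3.98 on the other arrays and 2.09 and 3.89 on TCI04 replicate 3. Neither did SERPINE2, whose second probe set was dim, at 36.1 to 66.9 on the other arrays and 54.5 on TCI04 replicate 3.

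The same array stood apart in the control probe sets for beta-actin. Its ratio of 3' to 5' signal was 3.33 on TCI04 replicate 3 and 1.64 to 1.72 on the other 5 arrays. Over all genes with several tested probe sets, the log2 ratio of the brightest to another probe set exceeded its mean on the other arrays by more than 0.5 for 15.4% of 12821 pairs on TCI04 replicate 3, and for 4.91% to 7.52% on each of the other arrays. PLAU (0.77) and S100A10 (0.51) were past that value and ANXA2 (0.38) was not. The part of the 3' to 5' ratio in the lower PLAU, S100A10 and ANXA2 values was not tested. Without this array the differences of the 3 dimmest probe sets were -0.08 for PLAU, -0.10 for S100A10 and -0.03 for ANXA2.

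**Figure D3:**
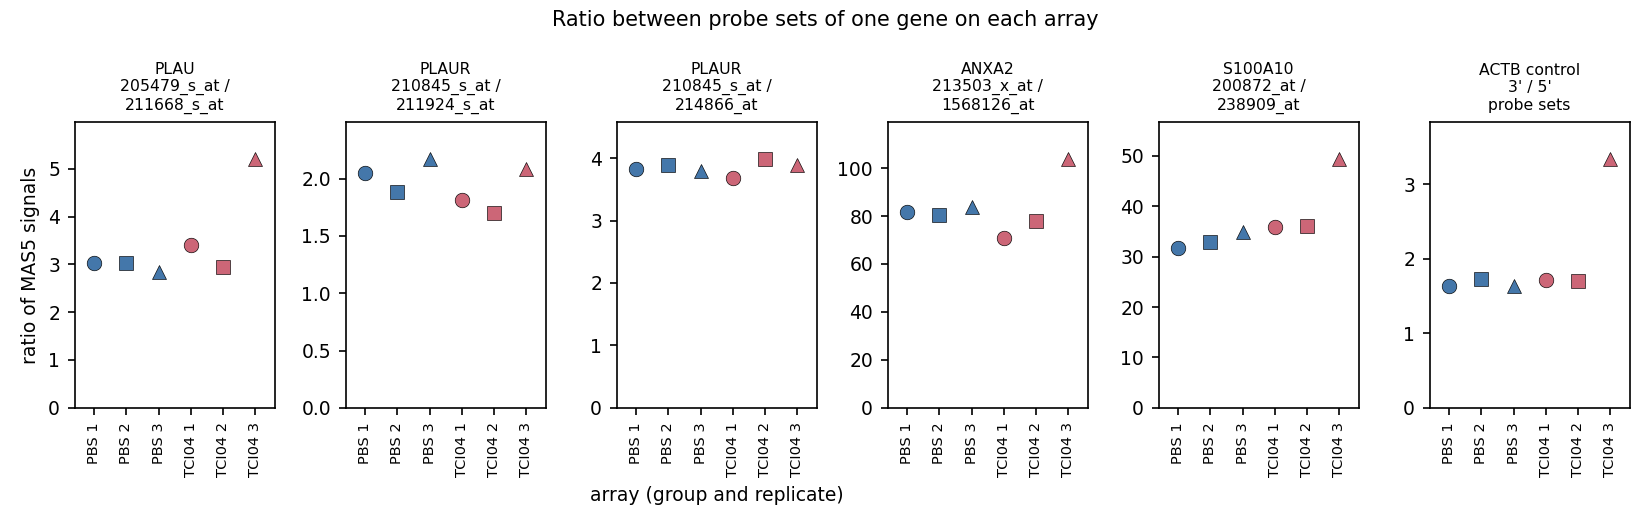
Ratio of the MAS5 signals of the brightest to another probe set of the same gene on each array (vertical axes, from 0), with the 3' to 5' ratio of the beta-actin control at the right. The SERPINE2 pair and the pairs within the _x_at probe sets of ANXA2 are not drawn. TCI04 replicate 3 is highest for PLAU (5.20), ANXA2 (104), S100A10 (49.3) and beta-actin (3.33), and lies among the other arrays for both PLAUR ratios.

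PBS replicate 1 was the lowest of the 6 arrays for 5 of the 14 probe sets, namely PLAU 205479_s_at, the 3 of PLAUR and S100A10 200872_at. It was the highest for PLAT 201860_s_at and SERPINE2 227487_s_at. Over all tested probe sets this array was the lowest for 14.6%. Its median signal was 74.3, compared with 64.0 and 64.8 in the other PBS arrays, and 58.9 to 59.8 with TCI04. Without PBS replicate 1, PLAU 205479_s_at was at -0.04 and S100A10 200872_at at -0.07, so both turned without it. S100A10 200872_at also turned without TCI04 replicate 2, to -0.02.

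All 6 arrays had the same mean signal without the highest and lowest values, 499.9. Arrays of 1 group correlated at 0.932 to 0.938 across probe sets (Spearman), and arrays of different groups at 0.930 to 0.940. All 7 markers of the mesenchymal state of this line were above the filter, from FN1 at 1597 to VIM at 28959.8, and their summed signal ran from 96815 to 102608 with PBS and from 97869 to 98538.5 with TCI04. The sum rests mainly on the brightest markers, and by gene 3 had a higher and 4 a lower mean. Only FN1 210495_x_at had groups without overlap, on the lower side (log2 difference -0.27, limma adjusted p = 0.699), beside 13.6% of all genes in either direction. Its other probe sets gave -0.44 to 0.02. Luminal, fibroblast, leukocyte and endothelial markers had 5 of 7, 2 of 5, 2 of 5 and 1 of 5 genes above the filter, with summed signals of at most 1689, 700.4, 249.98 and 291 on any array. Of the luminal markers, GATA3 had the highest mean, 817, and the epithelial cadherin CDH1 the lowest, 6.68. EPCAM 201839_s_at had a mean of 405.

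The surrounding genes of the pathway were followed in 8 lists of 93 genes, of which 70 were measured, each by its brightest probe set. FOS passed toward lower values and no other gene passed in either direction (limma, adjusted threshold 0.05), beside 0.0073% of all genes. Of the 70 genes, 41 had a lower and 29 a higher mean with TCI04, beside 50.7% lower over all 13704 genes. The same 50.7% is the background for the splits of the single lists below. The groups did not overlap for 12 of the 70, beside 13.6% of all genes. The median log2 difference of all genes was -0.0025.

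FOS 209189_at measured 1086, 1186 and 1183 with PBS and 471, 506 and 560 with TCI04, a log2 difference of -1.15 (limma, adjusted p = 0.00605). Leaving out PBS replicate 1, 2 or 3 ended the call (limma adjusted p = 0.0591, 0.114 and 0.121), as did leaving out TCI04 replicate 1 or 2 (adjusted p = 0.0514 and 0.0526), at log2 differences of -1.20 to -1.10. The other members of the list of AP-1, ETS and NF-kB subunits, which can act on PLAU and PLAUR, did not pass, and the median of the 14 genes was -0.03. JUN 201464_x_at and ETS1 224833_at, among the brightest of the list, had log2 differences of 0.01 and 0.02. FOSL1 204420_at, a FOS relative high in invasive breast cancer lines, measured 2955, 2930 and 2991 with PBS and 3323, 3162 and 3348 with TCI04, so its groups did not overlap on the higher side (log2 difference 0.15, adjusted p = 0.699). FOSB 202768_at measured 84.3, 111 and 62.9 with PBS and 6.58, 29.1 and 18.2 with TCI04, without overlap. All 3 TCI04 values lay under the filter's signal of 37.04, so this probe set was kept through its PBS values and no fold is given (limma adjusted p = 0.699). ELK1 203617_x_at and FOSL2 225262_at were also lower without overlap, at -0.28 and -0.08.

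Plasminogen and its other receptors had 7 of 8 genes with a lower mean and none without overlap, with a median of -0.08. ENO1 201231_s_at, the glycolytic enzyme enolase that also binds plasminogen at the cell surface, had a log2 difference of -0.08 (interval -0.22 to 0.06). Dimmer ENO1 probe sets gave -0.27 and -0.13. The named probe sets of ENO1 and HMGB1 were among the 500 brightest, of which 88.4% had a lower mean with TCI04. HMGB1 200680_x_at and AHNAK 211986_at, a large protein that binds the annexin A2 and S100A10 complex, were at -0.04 each, although a dimmer AHNAK probe set gave -1.13.

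Among inhibitors and clearance receptors, 3 of 6 measured genes had a higher mean, and the median was -0.01. SERPINI1 205352_at, an inhibitor of tissue plasminogen activator, measured 534, 523 and 483 with PBS and 554, 555 and 593 with TCI04 (log2 difference 0.14). VLDLR 209822_s_at, a receptor that takes up inhibited urokinase, measured 316, 312 and 261 and then 348, 328 and 360 (log2 difference 0.22). Neither gene's groups overlapped, and neither passed (limma, adjusted p = 0.744 and 0.710). LRPAP1 201186_at, the chaperone of the receptors of this family, was at 0.07.

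The list of proteases that activate pro-urokinase or act downstream also held HPSE and HGF, which are not proteases. Of its 10 measured genes, 4 had a higher mean and the median was -0.13. CTSL 202087_s_at, the lysosomal protease cathepsin L, measured 2974, 3074 and 3215 with PBS and 3762, 3492 and 3583 with TCI04. Every TCI04 array was above every PBS array, with a log2 difference of 0.23 (interval 0.08 to 0.37; limma unadjusted p = 0.00501, adjusted p = 0.699). CTSB 200839_s_at and F12 205774_at were at 0.06 and -0.17.

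Partners of the urokinase receptor were evenly divided, with 4 of 8 higher and a median of 0.0024, which turned to -0.15 when the probe sets of each gene were averaged. The integrin subunits ITGB1 211945_s_at and ITGAV 202351_at were at 0.01 and -0.0022. EGFR 224999_at was higher in every TCI04 array (log2 difference 0.10, adjusted p = 0.709), although its other probe sets gave -0.97 to 0.01. MRC2 37408_at, a collagen receptor that associates with the urokinase receptor, measured 657, 730 and 768 with PBS and 620, 576 and 575 with TCI04, a log2 difference of -0.28 (interval -0.49 to -0.06; limma adjusted p = 0.699).

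The relatives of the members gave small differences on the brightest probe sets of their brightest genes. Dimmer probe sets of these genes gave -0.46 for ANXA1, 0.05 for ANXA7, 0.37 for S100A6, 0.01 to 0.16 for SERPINB1 and -0.11 for SERPINB8. Of 8 other annexins, 4 had a lower mean and the median was -0.0041, with ANXA1 201012_at, ANXA5 200782_at and ANXA7 209860_s_at at 0.01, 0.02 and 0.06. Of 8 other S100 proteins, 6 had a lower mean and the median was -0.02, with S100A6 217728_at, S100A11 200660_at and S100A16 227998_at at -0.04, -0.01 and -0.06. S100A2 204268_at was lower in every TCI04 array, at -0.09. Of 8 other serpins, 5 had a higher mean and the median was 0.06. SERPINB7 206421_s_at, a dim probe set for a serpin of the same clade as SERPINB2, measured 27.7, 42.6 and 24.1 with PBS and 70.2, 79.6 and 79.9 with TCI04, without overlap. Its PBS mean of 31.5 lay under the filter's signal, so it was kept through its TCI04 values and no fold is given (limma adjusted p = 0.699). SERPINH1 207714_s_at, SERPINB1 212268_at and SERPINB8 206034_at, the brightest serpins, were at 0.10, -0.04 and 0.12.

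**Figure D4:**
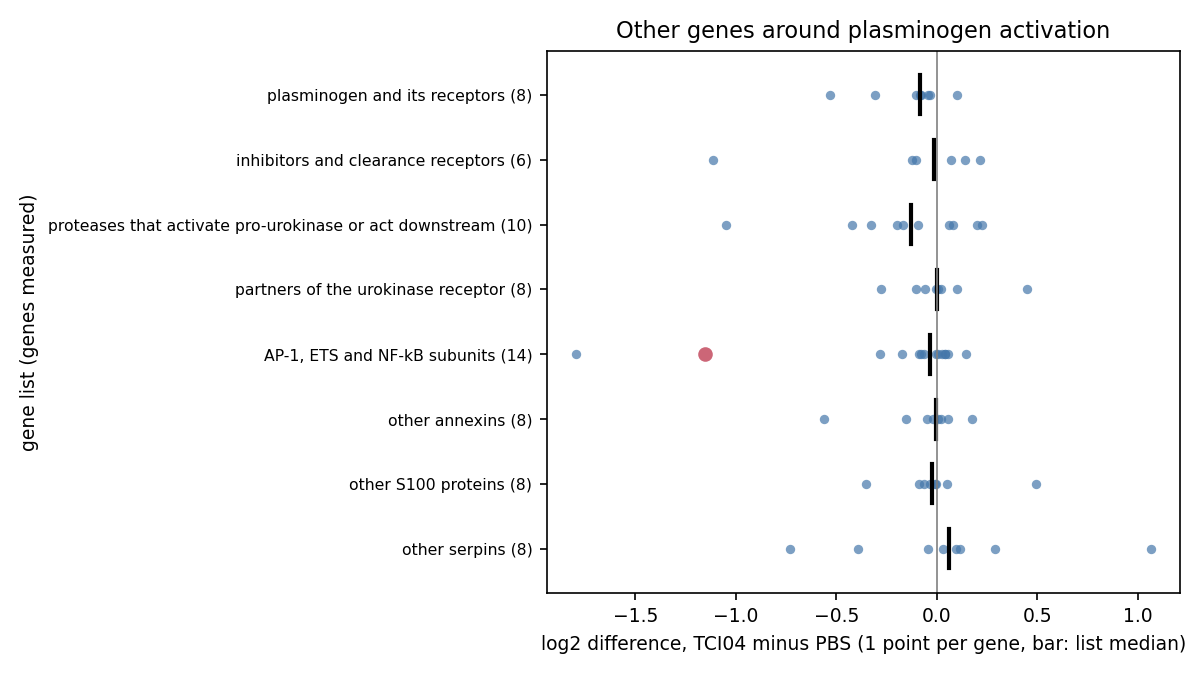
Log2 difference (TCI04 minus PBS, horizontal axis) of each measured gene in 8 lists around plasminogen activation, by the brightest probe set of each gene; bars mark list medians, from -0.13 to 0.06. FOS, in red at -1.15, is the only one of the 70 genes past the adjusted threshold.

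The genes whose log2 signal followed a member most closely over the 6 arrays are given as a description. They were PARP4 for PLAU (Pearson r = 0.988), EHD4 for PLAUR (0.996), HMGA2 for PLAT (0.988), TXNDC11 for SERPINE2 (0.995), RPL32 for ANXA2 (0.991) and RPUSD4 for S100A10 (0.991). None of these was another member. With 6 points and 26521 to 26524 candidate probe sets such values are common, and 188 to 260 probe sets had an r above 0.9 with a given member. The arrays share their scaling between all genes.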

How the data were processed

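RNA labelled as 3 PBS and 3 TCI04 samples was measured on 1-colour Affymetrix arrays. The authors deposited linear MAS5 intensity values, per the submitters' processing notes, which give no version. Detection calls were not used here, and the equal trimmed mean of 499.9 shows scaling per array. Genes come from the platform annotation, which pairs 41097 probe sets with exactly 1 symbol, leaves 11777 without any and gives 1801 more than 1; no genome build of the array was named, so only RefSeq promoter coordinates are given.

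An offset of 10.96 (20th percentile of the table) was added before taking log2, which understates changes at low signal. The 62 controls and probe sets with a mean signal under the 40th percentile (37.04) were removed, leaving 32746. A linear model was fitted in limma 3.58.1 with R 4.3.3 (TCI04 minus PBS, eBayes with trend, two-sided), adjusted by Benjamini-Hochberg over all 32746 and called at 0.05. Intervals of 95% used 10.5 degrees of freedom, and the number of arrays limits their precision.

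The members and gene lists were chosen with earlier results of these data known. Named were all member probe sets, the 3 brightest genes of each list, those past the threshold or without overlap between groups, FOS, and the most similar gene of each member. Pseudogenes of ANXA2 and a few list genes that bear on the name of a list are named too. Marker lists were named by their extremes only. The background by brightness and the ratios between probe sets were chosen after the values were seen. Alternatives were quantile normalization, median centring, offsets of 1 and 63.6, no filter or the 60th percentile, other variance models, the replicate number as a block, no _x_at probe sets, and each array left out.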

Additional observations from a re-analysis of the deposited data

How the results depend on the processing

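No plasminogen activation probe set passed the adjusted threshold in any of 17 alternatives; the lowest adjusted p was 0.281, for PLAUR 211924_s_at with median centring. The number of probe sets called over the whole array, and of genes called in the surrounding lists, was 1 in each case (FOS) and went to 0 with median centring, with eBayes without trend and with an ordinary t statistic; leaving out 1 array at a time gave 0 to 1. Of the 14 members, 8 had the same sign throughout. Among these, ANXA2 210427_x_at and ANXA2 1568126_at kept it only barely with median centring, at -0.0037 and -0.0038. With median centring PLAT 201860_s_at gave 0.126, ANXA2 213503_x_at 0.0095 and ANXA2 201590_x_at 0.0485. Without 1 array at a time, PLAU 205479_s_at ranged from -0.042 to 0.050, PLAT 201860_s_at from -0.102 to 0.073, SERPINE2 212190_at from -0.041 to 0.085 and S100A10 200872_at from -0.072 to 0.046. The cause of the turns was not tested.

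The replicate numbers were not shown to pair the arrays. Deviations of same-numbered arrays from their group means correlated at 0.0069, 0.0678 and 0.0554, although every array correlated best with its own number. With the replicate number as a block, 1 probe set was called over the array and 0 members. At an unadjusted p under 0.05 there were 4 members rather than 2 (lowest limma adjusted p of a member 0.329). The share of all probe sets at that level is given for the main fit only, so this rise has no background here. Averaging the probe sets of a gene moved the list medians to between -0.181 and 0.016, and turned that of the partners of the urokinase receptor from 0.0024 to -0.146.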
